A study of Dorcoceras hygrometricum with 51 samples.

Results

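The 8 genes described here encode late embryogenesis abundant (LEA) proteins and seed maturation proteins of the resurrection plant *Boea hygrometrica*. They are 8 of the 26693 genes in the deposited expression table, taken by their protein identifiers. They were chosen by their levels in dried over fresh leaves (SD/F, FD/F and AD/A, with the groups explained below), so those levels are given as a description, with no test. All 8 passed the filter on low values, which asked for 1 FPKM or more in 3 libraries or more and which 18736 genes passed. FPKM scales fragments by transcript length and by the mapped fragments of the library, so levels of different genes are compared per length.

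LEA proteins are small, very hydrophilic proteins that plants make in bulk late in seed development, when the embryo dries. Many of them have no fixed fold in water and take on structure as water is lost, and they are held to protect other proteins and membranes in the dry state. In most plants these genes are close to silent in leaves. Resurrection plants are known for making the same proteins in leaves that dry out and revive.

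The study asked how a first, slow drought prepares plants for a later rapid drying, and measured leaves of plants aged 3 months at the start, raised from seed of a wild, mainly outcrossing population. RNA was sequenced in 39 libraries, 3 in each of 13 groups, and a library holds the pooled RNA of some 45 leaves from 15 or more plants. F denotes fresh, well-watered plants that were never dried. SD denotes plants dried slowly in their soil, and A the acclimated plants, which were dried slowly and then rehydrated. A4 and A18 are acclimated plants, and F4 and F18 never-dried plants, cultured for a further 4 or 18 weeks. FD, AD, F4D, A4D, F18D and A18D are leaves of the group named by the first part of the code after rapid drying in air. Bisulfite sequencing of DNA was done on 1 library for each group except FD. The plants are genetically mixed and each library is a pool, so p-values measure the spread between pools.

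By annotation the 8 genes fall into 4 kinds. KZV56071, KZV56073 and KZV54810 match Dc3 and related LEA proteins, which carry a short repeated motif and were first described in carrot embryos, and KZV57972 matches D-29, a related LEA protein of cotton seeds. KZV53322 matches an 11 kDa LEA protein and KZV31716 an 18 kDa seed maturation protein, both named after small proteins of ripening seeds. KZV25445 matches D-34 of cotton, a member of the seed maturation protein family. KZV20706 is an AWPM-19-like protein, a membrane protein first described in wheat cells. The deposited coordinates place KZV56071 on scaffold KQ988415.1 from 236088 to 236650 and KZV56073 on the same scaffold from 247069 to 247707. The other genes lie on 6 further scaffolds, and the gene models span between 429 bp (KZV53322) and 1125 bp (KZV20706). The genome build, exons and untranslated regions are not given in the sources used here.

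The summed FPKM of a library ran between 806800 and 1063492. Leaf identity was checked with the small subunit of rubisco and 14 chlorophyll a-b binding genes, whose summed level ran between 2576 and 34847 FPKM in dried libraries and between 14549 and 190204 FPKM in fresh ones. Genes of seed storage proteins, the markers of seed tissue, reached at most 233 FPKM in any dried library and 29.3 FPKM in any fresh one. The leaf markers therefore moved with drying, and their part in the results below was not tested. In bulk leaves, fewer cells of a type and less RNA per cell cannot be told apart. Replicate 2 of A4 stood apart, with a mean Pearson correlation of 0.851 to the other 2 libraries of its group, the lowest of the 39 libraries. Replicate 3 of F18D held the lowest summed level of the 8 genes among dried libraries, at 3819 FPKM, against 15331 and 11443 FPKM in the other F18D libraries.

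**Figure D1:**
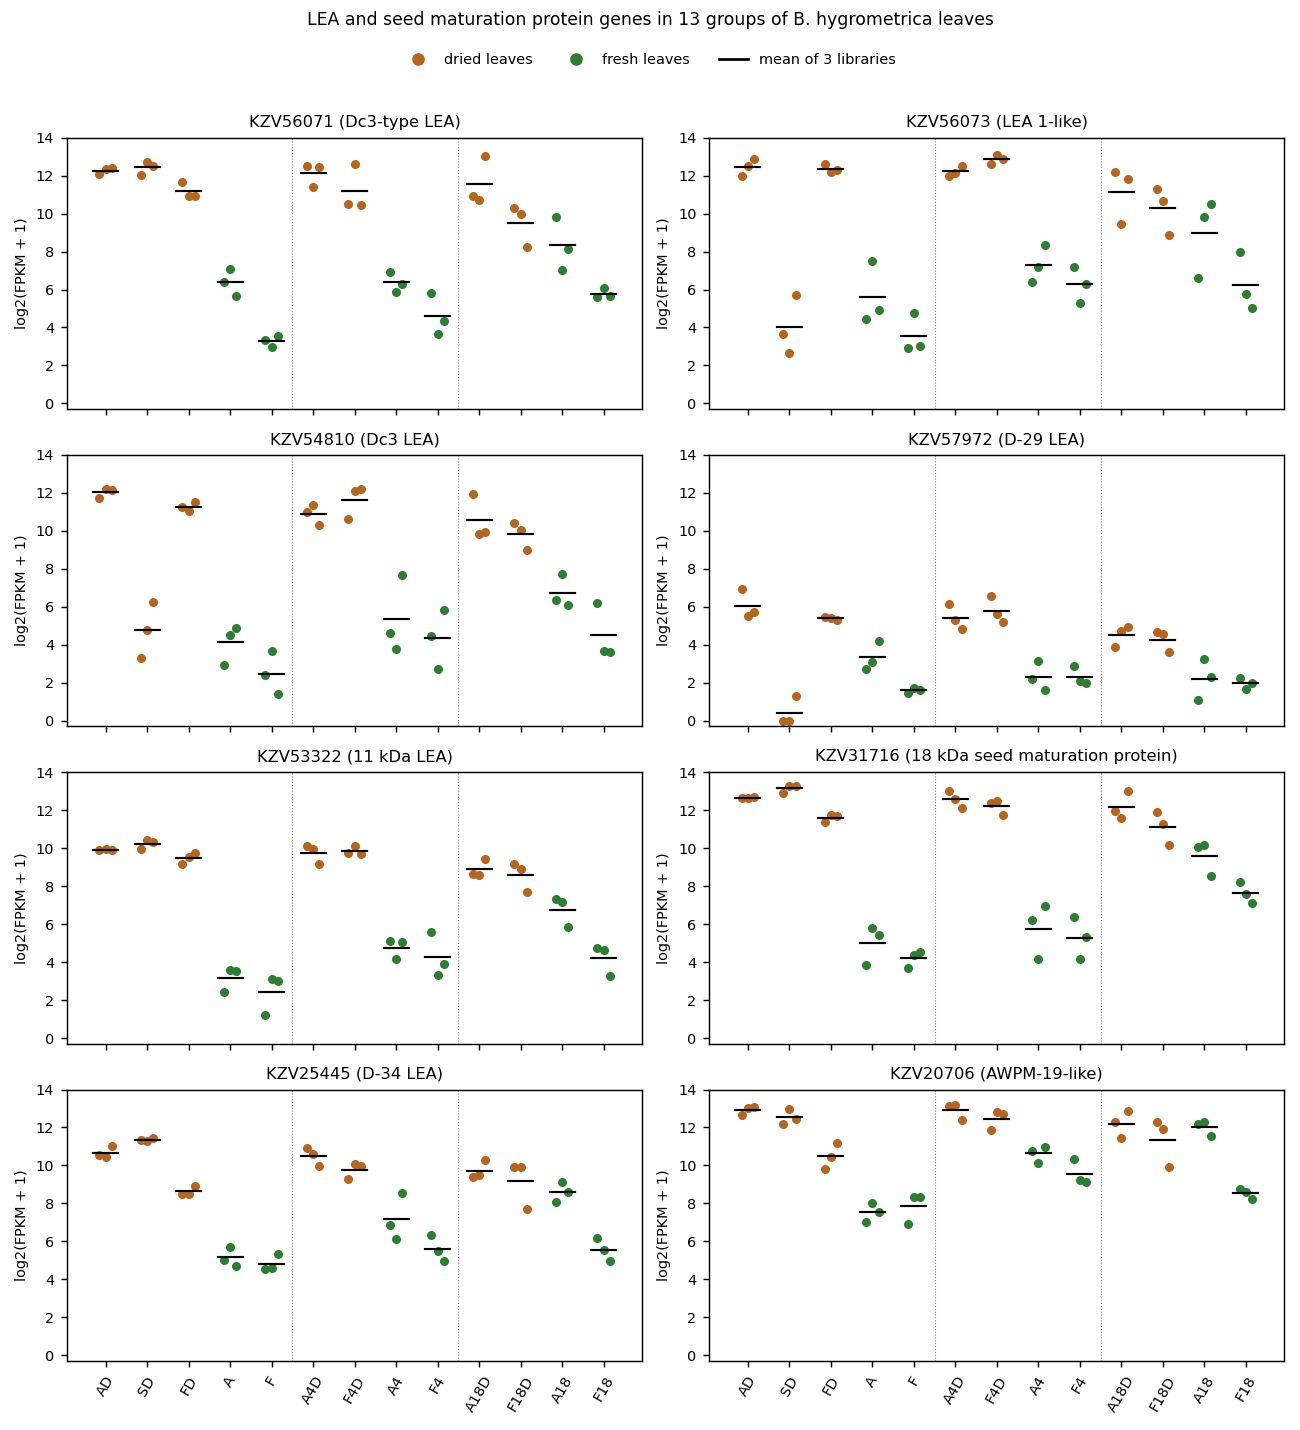
Level of each of the 8 genes in every library, as log2(FPKM + 1) on the vertical axis, by group on the horizontal axis; points are single libraries (brown, dried; green, fresh) and black lines the mean of 3 libraries. KZV56073, KZV54810 and KZV57972 sit low in SD, where the other 5 genes sit near their highest levels.

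Slow drying of the soil separated the 8 genes into 2 patterns, of which 5 genes stood far above fresh leaves in SD and 3 did not. All SD libraries lay above all F libraries in 5 of 8 genes, where this was so in 22.3% of all genes, and below them in 1 of 8, where it was so in 31.0%. KZV31716, the 18 kDa seed maturation protein, was at 7802, 9912 and 10006 FPKM in SD and at 12.0, 19.98 and 22.2 FPKM in F. Its mean in SD, 9239.8 ± 1246 FPKM (standard deviation, n = 3), was the highest of any of the 8 genes in any group. KZV56071, of the Dc3 type, was at 4211, 6725 and 5872 FPKM in SD and at 9.13, 6.88 and 10.5 FPKM in F. KZV53322, the 11 kDa LEA gene, was at 1009, 1389 and 1267 FPKM in SD and at 1.32, 7.56 and 7.09 FPKM in F. The log2 fold changes in SD/F, given as log2(FPKM + 1), were 8.95, 9.14 and 7.80 for these 3 genes, and no SD library overlapped with an F library. KZV25445, of the seed maturation protein family, was at 2623, 2538 and 2740.1 FPKM in SD and at 22.5, 23.0 and 38.8 FPKM in F. KZV20706, the AWPM-19-like gene, was at 4656, 8045 and 5640.4 FPKM in SD and at 121, 325 and 320 FPKM in F. KZV20706 was thus the only one of the 8 genes above 100 FPKM in every F library, and its SD/F log2 fold change of 4.67 was the smallest of these 5.

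The remaining 3 genes stayed far below the other 5 in SD, with SD/F log2 fold changes of 0.44 for KZV56073, 2.28 for KZV54810 and -1.16 for KZV57972. KZV56073 was at 11.6, 5.32 and 51.7 FPKM in SD and at 6.44, 26.5 and 7.18 FPKM in F, and the ranges overlap. KZV54810, of the Dc3 type, was at 8.74, 26.3 and 75.1 FPKM in SD and at 4.26, 11.8 and 1.61 FPKM in F, and these ranges overlap too. KZV57972, of the D-29 type, is listed at 0 in 2 SD libraries and at 1.46 FPKM in the other one, and was at 1.72, 2.27 and 2.11 FPKM in F. It was the 1 gene of the 8 whose SD libraries all lay below the F libraries. The same 3 genes stood high in rapidly dried leaves. KZV56073 was at 6270.4, 4690.3 and 5036 FPKM in FD and at 4088, 5835 and 7595 FPKM in AD. KZV54810 was at 2430.05, 2100.2 and 2946 FPKM in FD and at 3373, 4709 and 4527 FPKM in AD. KZV57972 was the least abundant of the 8 genes in rapidly dried leaves as well, at 43.9, 42.1 and 38.6 FPKM in FD and at 122, 45.4 and 51.6 FPKM in AD.

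**Figure D2:**
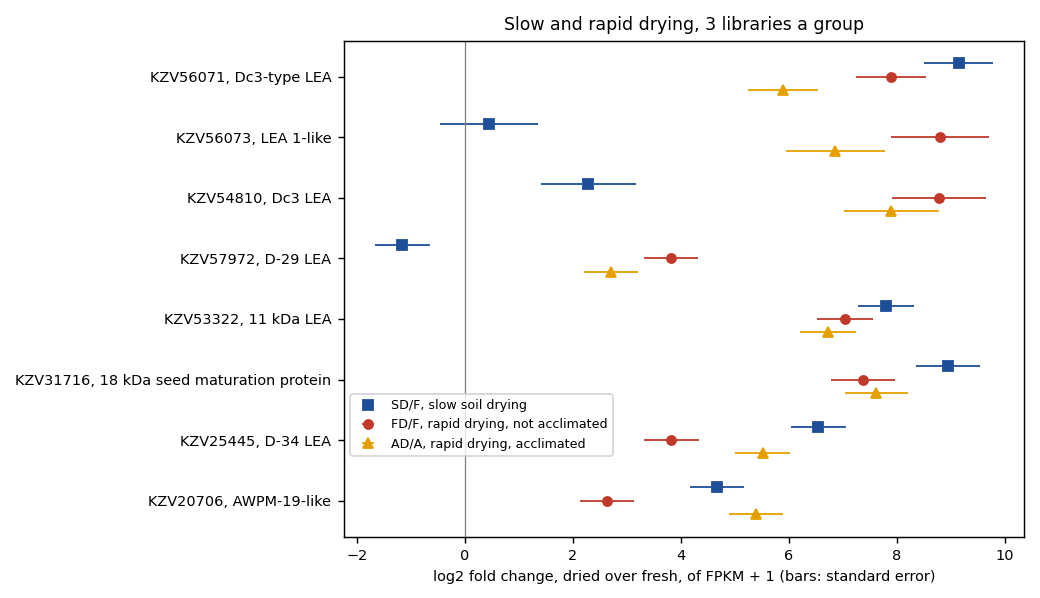
Log2 fold change of each gene, dried over fresh, on the log2(FPKM + 1) scale; symbols are the fitted values of SD/F, FD/F and AD/A and bars their standard errors (3 libraries a group). KZV56073, KZV54810 and KZV57972 lie between -1.16 and 2.28 in SD/F and between 2.70 and 8.80 in the other comparisons.

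The levels under slow and rapid drying were compared directly, in limma, a linear model fitted over all 39 libraries, in which a gene was called when its log2 fold change reached 1 in either direction and its adjusted p was 0.05 or less. These comparisons use the SD, FD and AD libraries, which also took part in the dried-over-fresh comparisons that chose the genes. In SD/FD, 3 of 8 genes were called lower in SD, where 15.6% of all genes tested were, and 3 of 8 were called higher, where 22.1% of all genes were. KZV56073 fell by 8.36 on the log2 scale (standard error 0.92, limma adjusted p = 1.27e-08), KZV54810 fell by 6.50 (standard error 0.88, limma adjusted p = 5.07e-07) and KZV57972 fell by 4.98 (standard error 0.51, limma adjusted p = 2.88e-09). For each of these 3 genes every SD library lay below every FD library, as for 23.9% of all genes. KZV25445 rose by 2.72 on the log2 scale in SD/FD (standard error 0.51, limma adjusted p = 6.4e-05), KZV20706 rose by 2.04 (limma adjusted p = 0.00131) and KZV31716 by 1.58 (limma adjusted p = 0.0295). The call of KZV31716 was lost after median-ratio scaling of the libraries, at a log2 fold change of 1.28, and without any of 5 of the 6 libraries. KZV56071 and KZV53322 had log2 fold changes of 1.26 and 0.76 in SD/FD and were not called, although their SD libraries were all above the FD libraries, as for 34.1% of all genes.

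Rapid drying after acclimation was set against the first, slow drying in AD/SD. Here 3 of 8 genes were called higher in AD, where 10.1% of all genes tested were. These were KZV56073 (8.45 on the log2 scale, limma adjusted p = 5.91e-08), KZV54810 (7.25, limma adjusted p = 3.07e-07) and KZV57972 (5.63, limma adjusted p = 2.78e-09). These 3 genes had been set apart above by their low levels in SD. AD/SD and SD/FD share the SD libraries, so neither result is independent of that sorting. The value of KZV57972 depends on the pseudocount, since 2 of its SD libraries are listed at 0. None of the 8 genes was called lower in AD/SD in limma, or had an unadjusted p under 0.05 in that direction (0 of 8), where 17.4% of all genes were called lower. The other 5 genes had log2 fold changes between -0.69 and 0.38, and those of KZV56071 (-0.16) and KZV53322 (-0.34) turned to 0.26 and 0.09 after median-ratio scaling.

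After rehydration the 5 genes that stood high in SD were far below their SD level again, and 4 of them were near the fresh level. KZV31716 was at 13.2, 55.5 and 42.2 FPKM in A, KZV53322 at 4.35, 11.1 and 10.5 FPKM and KZV25445 at 31.8, 51.9 and 25.2 FPKM, against the levels in SD given above. KZV56071 stayed above the fresh level, at 81.8, 132 and 50.3 FPKM in A and at 9.13, 6.88 and 10.5 FPKM in F. The log2 fold changes of the 5 genes in A/SD lay between -8.14 (KZV31716) and -5.01 (KZV20706). KZV57972 went the other way, at 5.73, 7.65 and 17.7 FPKM in A, with a log2 fold change of 2.93 against the SD libraries listed at or near 0. Of the 26 other LEA-type genes described below, 18 were called lower in A/SD, where 14.5% of all genes were, and 1 higher, where 20.4% were.

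Across the 3 stages of culture, rapidly dried leaves held the 8 genes above the fresh leaves of the matching group. In FD/F and AD/A all 8 log2 fold changes were above 1, with medians of 7.21 and 6.31, against medians of -0.45 and -0.33 over all genes tested. The medians of the 8 genes were 6.09 in F4D/F4 and 4.94 in A4D/A4 at 4 weeks, and 3.67 in F18D/F18 and 2.22 in A18D/A18 at 18 weeks. In every comparison of rapid drying except A18D/A18, the libraries of dried leaves lay above those of fresh leaves for all 8 genes, a separation found in 18.4% of all genes for FD/F, 19.9% for AD/A, 13% for F4D/F4, 12.6% for A4D/A4 and 9.55% for F18D/F18. In A18D/A18 it held for 6 of the 8, and for 8.87% of all genes. KZV20706 was at 5000.01, 2792 and 7489 FPKM in A18D and at 4735, 4975 and 2948 FPKM in A18, a log2 fold change of 0.20. KZV56073 was at 4673, 688 and 3590.3 FPKM in A18D and at 96.2, 902.5 and 1472 FPKM in A18. The A18D and A18 libraries of KZV20706 and KZV56073 overlapped, and both genes had their highest fresh mean in A18. KZV56073 still had a log2 fold change of 2.16, while KZV25445, whose libraries did not overlap, had 1.12. The mean of each gene was also lower in A18D than in AD, with a wide spread. KZV56073 was at 2984 ± 2061 FPKM in A18D and 5840 ± 1754 FPKM in AD (standard deviation, n = 3). The median difference was smaller in F18D/F18 than in FD/F as well, and these comparisons hold no A18 library. The cause was not tested. In F18D the mean levels of 6 genes were lower than in FD, as for KZV56071 with 1239, 1009.55 and 303 FPKM in F18D and 3193, 1951 and 1954 FPKM in FD. KZV25445 and KZV20706 had higher means in F18D, of 721 and 3241 FPKM, against 402 and 1558 FPKM in FD.

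Acclimated and never-dried plants were then compared after rapid drying. The AD and FD libraries also took part in the comparisons that chose the genes. The counts and values in AD/FD are therefore not independent of that choice. In AD/FD, 2 of 8 genes were called higher, where 6.89% of all genes tested were, and none was called lower, where 8.92% were (0 at an unadjusted p under 0.05 in limma). KZV20706, the AWPM-19-like gene, was at 6548, 8241 and 8566 FPKM in AD and at 902, 1409 and 2363 FPKM in FD. It rose by 2.42 on the log2 scale (standard error 0.50, limma adjusted p = 0.000757). KZV25445, of the seed maturation protein family, was at 1478, 1394 and 2110.0 FPKM in AD and at 366, 359 and 481 FPKM in FD. It rose by 2.03 (standard error 0.51, limma adjusted p = 0.00467). For 7 of the 8 genes every AD library lay above every FD library, a separation seen in 19.2% of all genes. KZV56073 was the exception, with a log2 fold change of 0.10 that turned to -0.12 without replicate 3 of AD. Fitted to the AD and FD libraries alone, 4 of 8 genes were called.

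The difference between the drying responses themselves, (AD/A)/(FD/F), was tested as an interaction in the same fit, and it shares its libraries with the comparisons that chose the genes. It was called for 1 of 8 genes in the higher direction, where 4.4% of all genes were, and for none in the lower direction, where 4.41% were (1 at an unadjusted p under 0.05 in limma). KZV20706 had an interaction of 2.76 on the log2 scale (standard error 0.71, limma adjusted p = 0.0119), from a log2 fold change of 5.38 in AD/A and of 2.63 in FD/F. At the later stages no difference passed the test. Those comparisons, too, share their libraries with the ones that chose the genes. None of the 8 genes was called in A4D/F4D, where 0.00534% of all genes were called higher and 0.0267% lower, or in A18D/F18D, where 0.187% were called higher and 0.475% lower. None was called in the interaction (A4D/A4)/(F4D/F4), where 0.00534% of all genes were called in each direction, or in (A18D/A18)/(F18D/F18), where 0.512% were called higher and 0.288% lower. At an unadjusted p under 0.05 in limma, 0 of 8 genes passed in A4D/F4D and in (A4D/A4)/(F4D/F4), 1 was higher in A18D/F18D and 3 were lower in (A18D/A18)/(F18D/F18). The largest value in A18D/F18D was that of KZV56071, 2.05 on the log2 scale (limma adjusted p = 0.111). Without replicate 3 of F18D, 2 of 8 genes were called lower in (A18D/A18)/(F18D/F18), and without replicate 3 of A18D, 1 was.

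**Figure D3:**
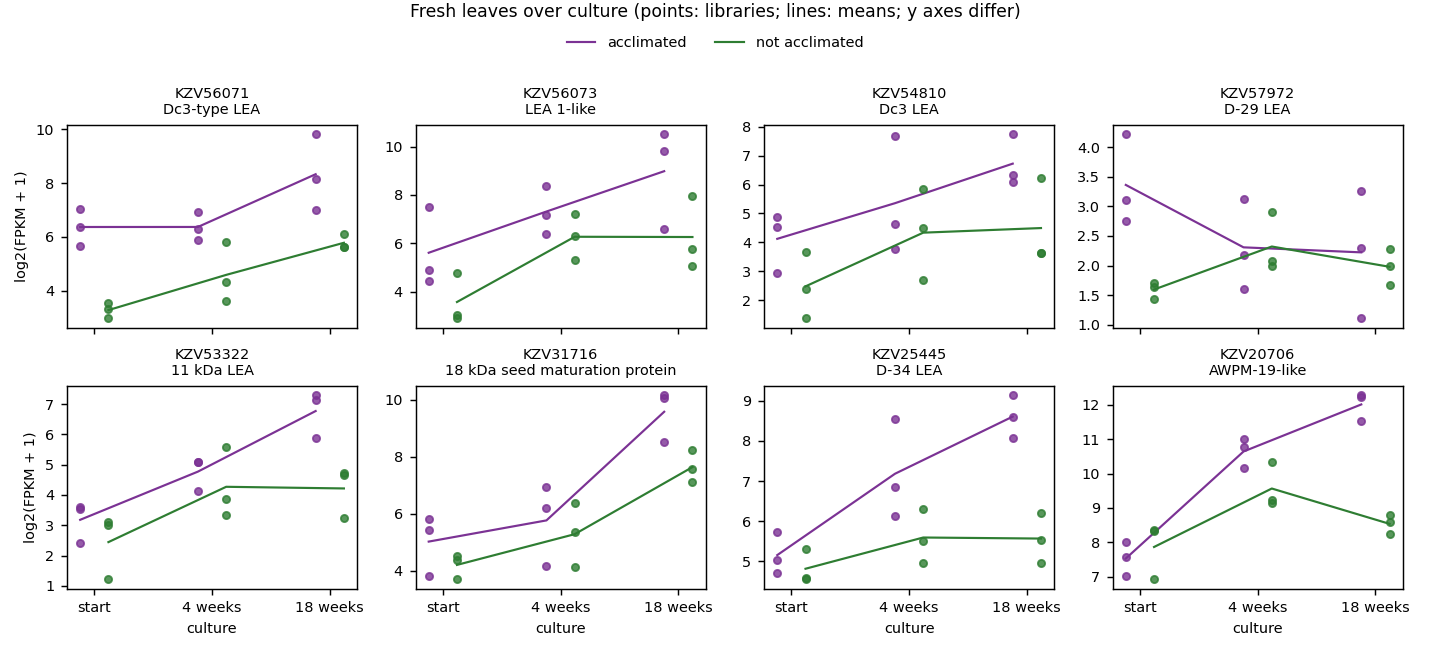
Levels of the 8 genes in fresh leaves, as log2(FPKM + 1) on vertical axes that differ between panels, at the start and after 4 and 18 weeks of culture; points are libraries, lines join group means of acclimated (A, A4, A18) and never-dried plants (F, F4, F18). At 18 weeks the A18 libraries lie above the F18 libraries for KZV56071, KZV53322, KZV31716, KZV25445 and KZV20706.

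In fresh leaves, more of the 8 genes were called between acclimated and never-dried plants at 18 weeks than before. The A18 and F18 libraries were the fresh side of A18D/A18 and F18D/F18, which took part in choosing the genes. The counts and values in A18/F18 are therefore not independent of that choice. KZV56071 and KZV57972 had larger log2 fold changes at the start, 3.09 and 1.77 in A/F, against 2.55 and 0.24 in A18/F18. In A18/F18, 5 of 8 genes were called higher, where 2.0% of all genes tested were, and none was called lower, where 5.75% were (0 at an unadjusted p under 0.05 in limma). These 5 were the genes that stood high in SD. KZV20706 was at 4735, 4975 and 2948 FPKM in A18 and at 439, 387 and 299.9 FPKM in F18. It rose by 3.47 on the log2 scale (standard error 0.50, limma adjusted p = 5.14e-05). KZV25445 was at 268, 564 and 388 FPKM in A18 and at 72.5, 45.7 and 30.2 FPKM in F18, a rise of 3.04 (standard error 0.51, limma adjusted p = 0.000315). KZV53322 was at 156, 140.1 and 57.3 FPKM in A18 and at 25.6, 24.2 and 8.51 FPKM in F18, a rise of 2.55 (limma adjusted p = 0.00216). In these 3 genes, as in the 2 that follow, no A18 library overlapped with an F18 library, a separation seen upwards in 5.63% of all genes. KZV56071 was at 906, 128 and 282 FPKM in A18 and at 48.25, 67.2 and 48.7 FPKM in F18 (2.55 on the log2 scale, limma adjusted p = 0.0124). Without replicate 1 of A18 its value was 1.80 and its call was lost. KZV31716 was at 1055, 1143 and 363 FPKM in A18 and at 299.5, 189 and 136 FPKM in F18 (1.94, limma adjusted p = 0.0363), and its call was lost in 7 of the alternatives.

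The remaining 3 genes were not called in A18/F18, and their libraries overlapped. KZV56073 was at 96.2, 902.5 and 1472 FPKM in A18 and at 247, 53.5 and 32.1 FPKM in F18, with a log2 fold change of 2.72 and a limma adjusted p of 0.0574. KZV54810 had 2.22 (limma adjusted p = 0.105) and KZV57972 had 0.24 (limma adjusted p = 0.812). The median of the 8 genes was 2.55, against -0.29 over all genes tested, which median-ratio scaling moved by 0.287. Leaving out single libraries gave between 4 and 7 called genes, and a fit to the A18 and F18 libraries alone called 2. The count was 7 without replicate 1 of F18, when KZV56073 and KZV54810 were called as well. The leaf markers stood at 32733, 39312 and 52042 FPKM in A18 and at 22107, 14549 and 32186 FPKM in F18. Their part in the difference was not tested.

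The A and F libraries compared in A/F took part in the comparisons that chose the genes, as did the A4 and F4 libraries. Directly after rehydration, in A/F, KZV56071 was the 1 gene of 8 called, where 0.0587% of all genes were called in each direction. It was at 81.8, 132 and 50.3 FPKM in A and at 9.13, 6.88 and 10.5 FPKM in F, and rose by 3.09 on the log2 scale (standard error 0.65, limma adjusted p = 0.04). The call was lost without any single library of either group, without the filter and with a replicate block. It was also lost in a fit of the 2 groups alone, where no gene of all those tested was called. The value lay between 2.74 and 3.43 without single libraries. KZV57972 was the other gene whose A libraries all lay above the F libraries, as 3.6% of all genes did, at 5.73, 7.65 and 17.7 FPKM in A and 1.72, 2.27 and 2.11 FPKM in F (1.77, limma adjusted p = 0.224). None of the 8 genes was called in A4/F4, where 0.0213% of all genes were called higher and 0.0267% lower, and 3 were higher at an unadjusted p under 0.05. Without replicate 2 of A4, 1 gene was called there, KZV25445.

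Most of the 8 genes stood higher in fresh leaves after culture. All fresh groups compared here were the fresh side of comparisons that chose the genes. Changes between them are therefore not independent of that choice. In A18/A, 7 of 8 genes were called higher, where 6.39% of all genes tested were, and none was called lower, where 6.77% were (1 at an unadjusted p under 0.05 in limma). KZV31716 was at 1055, 1143 and 363 FPKM in A18 and at 13.2, 55.5 and 42.2 FPKM in A, a rise of 4.55 on the log2 scale (limma adjusted p = 4.09e-06). KZV20706 was at 129, 256 and 189 FPKM in A, and rose by 4.47 in A18/A (limma adjusted p = 4.34e-07). KZV57972 was the exception, at 1.16, 8.61 and 3.91 FPKM in A18 and with a log2 fold change of -1.14 (limma adjusted p = 0.125). It was called lower, at -1.66, without replicate 2 of A18. Without replicate 1 of A, 4 genes were called, and a fit of both groups alone called 3. At 4 weeks, in A4/A, 2 of 8 genes were called higher, where 0.87% of all genes were. They were KZV20706 (3.11, limma adjusted p = 0.00128) and KZV25445 (2.02, limma adjusted p = 0.0305), and the call of KZV25445 was lost without any of 5 of the 6 libraries. None was called lower, where 1.21% of all genes were, and without replicate 2 of A4 the count of higher genes was 3.

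In never-dried plants fewer of the genes were called over the same time. The same limit applies to F18/F and F4/F. In F18/F, 4 of 8 genes were called higher, all of them also called in A18/A, where 13.5% of all genes tested were, and none lower, where 7.15% were (0 at an unadjusted p under 0.05 in limma). KZV31716 was at 299.5, 189 and 136 FPKM in F18 and at 12.0, 19.98 and 22.2 FPKM in F, a rise of 3.42 (standard error 0.59, limma adjusted p = 8.17e-05). KZV56071 rose by 2.50 (limma adjusted p = 0.00471), KZV56073 by 2.69 (limma adjusted p = 0.0287) and KZV53322 by 1.77 (limma adjusted p = 0.0112). KZV25445 (0.75) and KZV20706 (0.67) were not called. Median-ratio scaling and a fit of both groups alone each left 2 called genes, as did leaving out replicate 1 of F or replicate 1 of F18. None of the 8 genes was called in F4/F in limma, where 0.0267% of all genes were called in each direction, and 4 were higher at an unadjusted p under 0.05. Of the 8 genes, 5 had all F4 libraries above the F libraries, as did 3.33% of all genes.

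Ordered by group mean, SD was the highest group for KZV31716, KZV56071, KZV53322 and KZV25445, AD for KZV54810 and KZV57972, F4D for KZV56073 and A4D for KZV20706. F was the lowest group for 6 of the genes, A for KZV20706 and SD for KZV57972. Most neighbours in these orders did not differ beyond their spread. Of 12 neighbouring pairs, the ranges of mean ± standard deviation were apart in 4 for KZV31716, in 3 for KZV53322 and in 2 for KZV57972. They were apart in 1 pair each for KZV56071, KZV54810 and KZV25445, and in 0 for KZV56073 and KZV20706. For KZV25445 the separated pair was SD above AD.

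Over the 39 libraries the 8 genes were alike to different degrees. Pearson's r of log2(FPKM + 1) between pairs of them ran between 0.418 and 0.976, as a description over libraries that share their groups. The closest pair was KZV53322 and KZV31716 (0.976), the 2 genes named after small seed proteins, and KZV56073 and KZV54810 had 0.942. The least alike pair was KZV57972 and KZV20706. Among all 18736 genes tested, the genes most like KZV54810 were KZV32937 (0.963), annotated as galactinol--sucrose galactosyltransferase, an enzyme that makes raffinose-family sugars, and KZV40225 (0.963), which matches a xyloglucan endotransglucosylase, an enzyme of the cell wall. The gene most like KZV25445 was KZV14089 (0.966), the desiccation protectant Lea14, and those most like KZV20706 were the dehydrin genes KZV27833 (0.947) and KZV33446 (0.943). KZV30866, which matches the transcription factor TGA1, was most like KZV56071 (0.954). KZV46819, which matches a calcium-binding protein, was most like KZV57972 (0.879). By the mean of r over the 8 genes, the 10 closest other genes had values between 0.855 and 0.861, and 3 of them were LEA-type genes by annotation, KZV56066, KZV56068 and KZV36405.

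The genome annotation holds 28 further LEA-type genes, found by text in product names and protein matches, and 26 of them passed the filter. In SD/F 20 of 26 were called higher, where 12.9% of all genes tested were, and 2 were called lower, where 22.1% were. In FD/F 18 of 26 were called higher, against 13.2% of all genes, and 1 lower, against 29.1%. In AD/A 21 of 26 were called higher, against 13.1% of all genes, and 1 lower, against 26.2%. At 4 weeks 20 of 26 were called higher in F4D/F4 and 21 of 26 were in A4D/A4, where 10.4% of all genes were in each. At 18 weeks 18 of 26 were called higher in F18D/F18, against 6.13% of all genes, and 3 of 26 in A18D/A18, against 6.43%. After median-ratio scaling the count in A18D/A18 was 8. Scaling also moved the number called higher there among all 18736 genes, from 1204 to 2156. In F4D/F4 1 of 26 was called lower, where 35.9% of all genes were. In A18/F18 18 of 26 were called higher, where 2.0% of all genes were, at a median log2 fold change of 2.07. None was called lower in limma (0 at an unadjusted p under 0.05), where 5.75% of all genes were. A fit of both groups alone called 2 higher. In AD/FD 4 of 26 were called higher, KZV53538, KZV14089, KZV31986 and KZV36404, where 6.89% of all genes were. In A/F, A4/F4, A4D/F4D and A18D/F18D none was called in limma. Of all genes, 0.0587, 0.0213, 0.00534 and 0.187% were called higher there and 0.0587, 0.0267, 0.0267 and 0.475% lower, so few calls were to be had. Of the 26, 3, 0, 2 and 0 were higher at an unadjusted p under 0.05, with 1 lower in A/F and 0 in the others. In (A18D/A18)/(F18D/F18) none was called either, where 0.512% of all genes were called higher and 0.288% lower. There 13 of 26 were lower at an unadjusted p under 0.05. In SD/FD 11 of 26 were called lower in SD, where 15.6% of all genes were, and 6 of 26 were called higher, a share close to the 22.1% of all genes.

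The most abundant LEA-type genes were not among the 8. Those of highest mean were KZV56069 and KZV56072, which stood at 7251 and 6132 FPKM on average in F already. In SD/F KZV56069 rose by 2.04 (limma adjusted p = 0.000682) and KZV56072 fell by 1.48 (limma adjusted p = 0.0156). KZV42426, which matches the desiccation-related protein PCC3-06, was at 21699.5, 14123 and 23745 FPKM in SD and at 572, 3192 and 712 FPKM in F, and rose by 4.15 on the log2 scale in SD/F. KZV36405, annotated as a maturation polypeptide, was at 20622, 26432 and 23941 FPKM in AD and at 161, 613 and 354 FPKM in A, and rose by 6.16 in AD/A. All 36 LEA-type genes, members included, held between 8.60 and 29.8% of the summed FPKM in dried libraries and between 1.92 and 17.8% in fresh ones. The 8 genes described held between 0.418 and 3.78% in dried libraries and between 0.02 and 0.855% in fresh ones. The fresh libraries with the largest shares were those of A18.

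**Figure D4:**
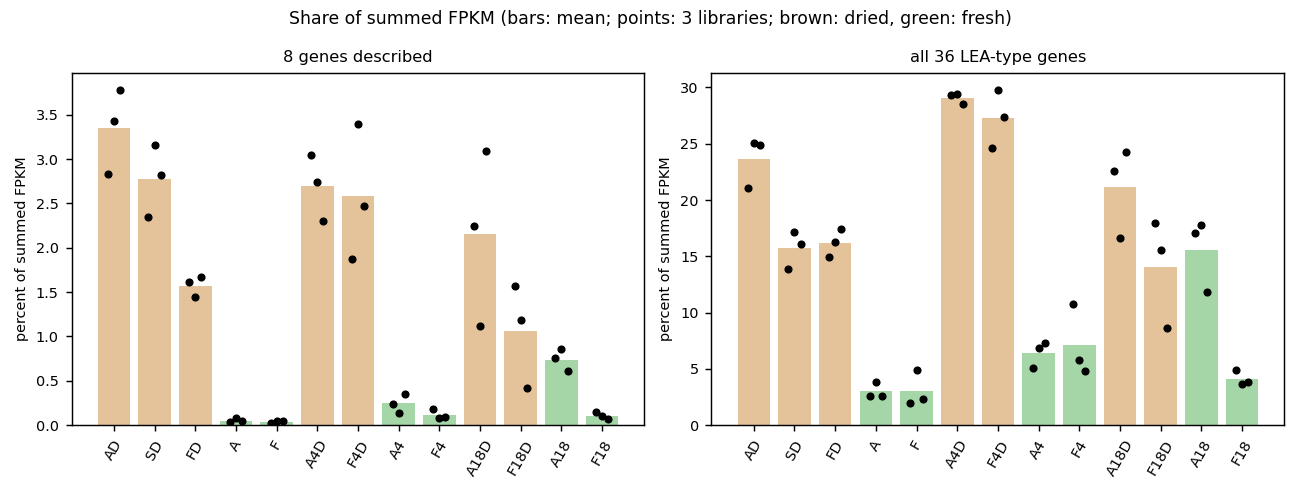
Share of the summed FPKM of a library, in percent on a linear axis from 0, held by the 8 genes described and by all 36 LEA-type genes, by group; bars are means and points the 3 libraries (brown bars, dried; green bars, fresh). Among fresh leaves A18 stands highest, at up to 17.8% for all LEA-type genes.

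KZV14089, the Lea14 gene most like KZV25445 over the libraries, was high in slowly dried leaves. It was at 1097, 1304 and 1094 FPKM in SD, at 163, 85.8 and 120 FPKM in FD and at 1.12, 4.74 and 3.56 FPKM in F. It rose by 3.28 in SD/FD (standard error 0.61, limma adjusted p = 6.01e-05) and by 2.74 in AD/FD (limma adjusted p = 0.0016). KZV51959, a LEA 76-like gene, was lower in slowly dried leaves, at 1173, 1376 and 1761 FPKM in SD and at 8339, 7525 and 8293 FPKM in FD. It fell by 2.50 in SD/FD (limma adjusted p = 0.000695).

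KZV56071 and KZV56073 lie in a run of LEA-type genes. On scaffold KQ988415.1, 7 LEA-type genes stand next to one another in 53.7 kb, with no other gene of the table between them, among 66 genes of the table on that scaffold. KZV56071 and KZV56073 were the lowest of the 7 in fresh leaves, at 8.85 ± 1.85 and 13.4 ± 11.4 FPKM in F (standard deviation, n = 3), while the other 5 had means between 609.6 and 7251 FPKM there. The genes of the run differed in their levels under slow drying. KZV56072, which lies 1436 bp before KZV56073, was at 1607, 1699 and 2649 FPKM in SD, 17108, 18675 and 17763 FPKM in FD and 4436, 10601 and 3360.0 FPKM in F. It fell by 3.20 in SD/FD (standard error 0.49, limma adjusted p = 4.08e-06). KZV56074, which lies 2203 bp after KZV56073, fell by 2.07 in SD/FD (limma adjusted p = 0.000194). At the other end, KZV56066 fell by 1.30 (limma adjusted p = 0.0422) and KZV56068 fell by 1.14 (limma adjusted p = 0.0145). KZV56069, which had 0.64, and KZV56071 were not called. In all, 5 of the 7 genes were called lower in SD/FD, where 15.6% of all genes tested were. KZV56073, which had been set apart above by its low level in SD, fell the most among them. These genes match the same family of proteins and the authors' counting could split fragments between them, so their single levels are uncertain.

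**Figure D5:**
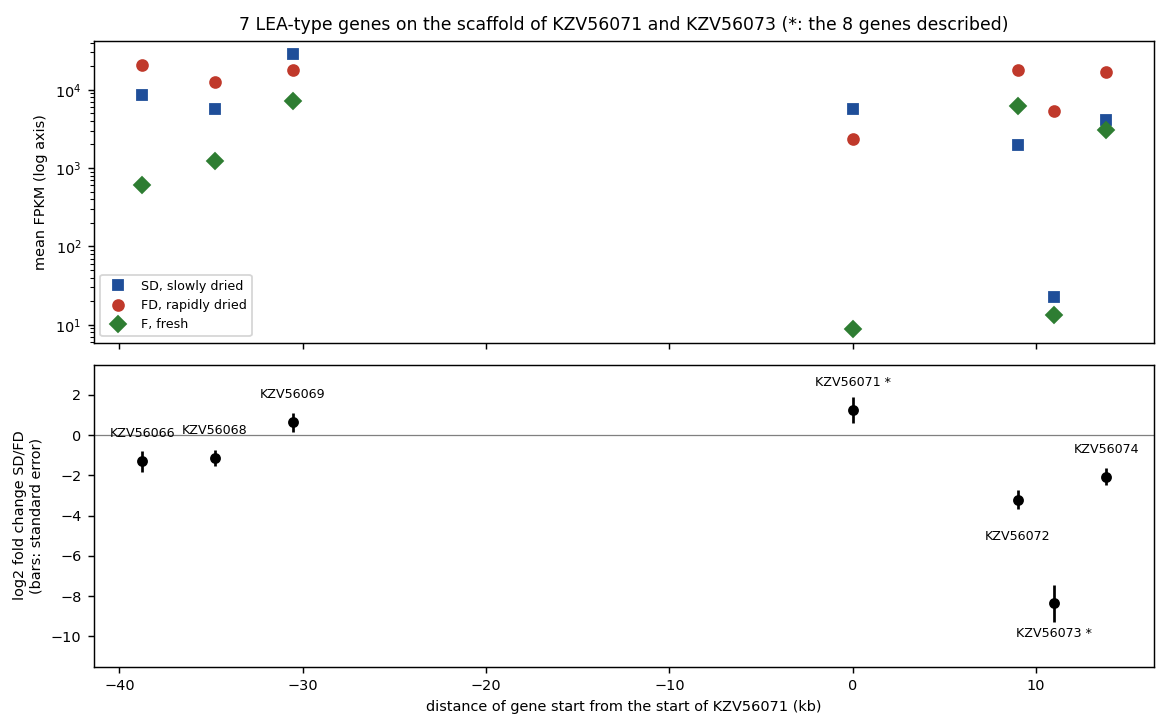
Mean FPKM on a log axis in SD, FD and F (top) and log2 fold change of SD/FD with its standard error (bottom) for the 7 LEA-type genes, by distance in kb from the start of KZV56071; stars mark KZV56071 and KZV56073. KZV56073 has the lowest SD/FD value of the run, -8.36, and KZV56071 the highest, 1.26.

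Outside this run the genes beside the 8 mostly had other patterns. The exception was KZV54811, annotated as a translationally-controlled tumor protein, a conserved growth-related protein, which lies 659 bp after KZV54810. Its means were 674 FPKM in AD, 23.6 in SD, 329 in FD, 12.3 in A and 12.7 in F, and its r with KZV54810 over the 39 libraries was 0.957. It is the next gene on the scaffold, and transcripts running from one gene into the other were not tested for. Of the other 10 neighbours that are not LEA-type genes and passed the filter, r with the adjacent gene ran between -0.744 and 0.516.

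Regulators and storage proteins of seeds were followed beside the 8 genes. Of 10 genes in the list of seed and abscisic acid (ABA) regulators that passed the filter, 2 were called higher and 3 lower in SD/F, where 12.9% and 22.1% of all genes were, and 2 higher and 1 lower in AD/A, where 13.1% and 26.2% were. The counts in SD/F are near the shares of all genes. KZV17773, the regulator of highest mean, matches an ABSCISIC ACID-INSENSITIVE 5-like protein and fell by 1.35 in SD/F (limma adjusted p = 0.00545). In SD/FD it fell by 2.27 (limma adjusted p = 1.95e-05). KZV45169, an AREB-like protein, which in other plants binds ABA-responsive promoters, was at 63.5, 111 and 62.6 FPKM in SD and at 3.51, 9.04 and 9.33 FPKM in F. It rose by 3.31 in SD/F, by 3.68 in FD/F and by 1.48 in A18/F18 (limma adjusted p = 0.0422). KZV44427, annotated as ABA-responsive element binding protein 3, was at 204, 101 and 169 FPKM in SD, 49.7, 27.6 and 46.0 FPKM in FD and 30.0, 35.5 and 30.4 FPKM in F. It rose by 1.90 in SD/FD (limma adjusted p = 0.0015) and by 1.63 in AD/FD (limma adjusted p = 0.0138). KZV54578, annotated as ABA responsive elements-binding factor 2, fell by 1.68 in SD/F (limma adjusted p = 0.00137). It also fell by 2.44 in SD/FD (limma adjusted p = 1.51e-05) and rose by 1.43 in A18/F18 (limma adjusted p = 0.0269). KZV28891, which carries the same annotation, went in the opposite directions. It rose by 1.38 in SD/FD (limma adjusted p = 0.000497) and fell by 1.58 in A18/F18 (limma adjusted p = 0.00159).

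Of 10 storage protein genes that passed the filter, 8 were called higher in AD/FD, where 6.89% of all genes were, the 6 most abundant ones among them. None was called lower in limma (0 at an unadjusted p under 0.05), where 8.92% of all genes were. KZV42391, a vicilin-like gene, was at 137, 196 and 233 FPKM in AD, 18.5, 25.7 and 33.6 FPKM in FD and 1.57, 3.66 and 5.26 FPKM in SD. It rose by 2.82 in AD/FD (standard error 0.58, limma adjusted p = 0.000686). KZV34985, a 2S albumin gene, was at 20.6, 40.1 and 81.1 FPKM in AD and at 3.22, 5.81 and 11.7 FPKM in FD (2.55, limma adjusted p = 0.00188). The storage genes remained low beside the LEA genes, since all of the 8 genes except KZV57972 had 942.6 FPKM or more in every AD library.

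Promoter methylation was read for 6 of the 8 genes, and KZV56071 and KZV54810 have no row under their own locus tags. Each value is the share of methylated reads over a promoter in 1 pooled library, with no replicate and no depth per promoter in the tables, so no test was made. The rows are tied to genes by locus tag, and the expression column beside the methylation values follows the preceding tag (Pearson r between 0.928 and 0.943 over the 12 tables), against 0.0691 to 0.0943 for the row's own tag. Methylation in the CG context was more negatively correlated with the expression of the row's own tag than with that of 4 neighbouring tags in all 12 tables, though weakly (Spearman's rho between -0.0736 and -0.0301). The row's own tag was therefore used, and the assignment remains uncertain.

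By this assignment the promoters of KZV56073, KZV53322, KZV31716 and KZV20706 had at most 3.35% CG methylation in any library, where the median promoter had 62.8% in F. KZV31716, at 9239.8 FPKM in SD and 18.1 FPKM in F on average, had 2.5% CG methylation in SD and 0% in F. KZV57972 had between 10.9 and 20.7% CG and between 34.5 and 53.4% CHG methylation. KZV25445 was the most variable. Its CG methylation was 15.0% in F, 31.4% in SD, 71.2% in A and 79.4% in AD, and 14.3% in A18D against 72.6% in A18. Of 297 differences between paired libraries in 3 contexts, 18 reached 20 percentage points, and all 18 were those of KZV25445. Over the promoters of all genes, 3.32% of such differences reached 20 points. KZV25445 was at 36.3 ± 13.9 FPKM in A and 28.1 ± 9.27 FPKM in F (standard deviation, n = 3), with a CG methylation that was 56.2 points higher in A. Read by the next locus tag instead, CG methylation in F was 59.4% for KZV56073 and 93.9% for KZV20706, and it was 83.5% for KZV25445 and 59.6% for KZV57972, so the values of these 4 promoters, the differences of KZV25445 included, rest on the assignment. Those of KZV53322 (1.33%) and KZV31716 (0.29%) were low by that reading too. KZV56071 and KZV54810 have values by the next tag as well, with 76.5 and 69.9% CG methylation in F. By that reading 10 of 408 differences reached 20 points, in 4 of the genes.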

How the data were processed

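Leaves of *B. hygrometrica* were profiled in 39 RNA-seq and 12 bisulfite libraries, grouped by the sample labels. The authors aligned reads with HISAT, assembled transcripts with StringTie 1.0.4, mapped reads with Bowtie2 2.2.5 and estimated abundance with RSEM, and deposited FPKM. The deposited methylation values are fractions of methylated reads per promoter and context, which the authors obtained after mapping with BSMAP. The FPKM column beside them was used only to check locus tags. No genome was used, and no sequence is shown.

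Genes that reached 1 FPKM in 3 or more libraries (18736 of 26693) were fitted as log2(FPKM + 1) with limma 3.58.1 (lmFit, contrasts.fit, eBayes with trend) under R 4.3.3, estimating the 13 group means jointly from 39 libraries. Tests were two-sided, with Benjamini-Hochberg adjustment over all genes tested and genes were called at a log2 fold change of 1 or more in size and an adjusted p of 0.05 or less. The fit was tested on simulated data. Fold changes on the log2(FPKM + 1) scale understate changes of low genes. Tables were made in Python 3.11.15 with pandas 2.3.3, numpy 2.4.6 and scipy 1.17.1, and plots with matplotlib 3.10.9.

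The members and lists were chosen with earlier results of these data known. LEA-type genes, seed regulators and seed storage proteins were found by text patterns on product and protein match. Basic 7S globulins and members of broad superfamilies were left out of the storage list after its matches were seen. Named among the other LEA-type genes were the 5 of highest mean, the 5 of largest AD/A change with at least 10 FPKM, those on a scaffold of a member, and up to 5 called per comparison of acclimated with never-dried plants. Likeness took the 3 closest genes per member and the 10 closest over all, neighbours 1 gene on each side, and regulators and storage genes up to 6 of highest mean. Not every gene of the rule is printed.

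Read counts were not used here. From the steps between low FPKM values of 2204 genes, the worth of 1 fragment ran between 0.874 and 1.26 of a gene's typical step, a relative measure of depth. Differences in methylation were counted from 20 percentage points.

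Alternatives were a pseudocount of 0.1, no filter, median-ratio scaling, a replicate block, a fit of each comparison's libraries alone, each library left out, and methylation minimums of 10 and 5 points. Reading methylation by the next locus tag was added after seeing the data.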

Additional observations from a re-analysis of the deposited data

Results flagged for a closer look

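The drying response differed between acclimated and never-dried plants at the start of culture for 3 LEA-type genes, by the interaction (AD/A)/(FD/F) tested in limma. Not all of these calls held under the alternatives. KZV20706, the AWPM-19-like gene, had an interaction of 2.76 on the log2 scale (standard error 0.71, adjusted p = 0.0119). It is 1 of the genes chosen by their changes in AD/A and FD/F, whose difference the interaction is, so its value is not independent of that choice. KZV53538, an embryonic protein DC-8-like gene, had 3.59 (standard error 0.82, adjusted p = 0.00448), at 17.8, 26.4 and 42.1 FPKM in AD and 1.07, 0.72 and 2.13 FPKM in FD, and it is listed at 0 in all F libraries. Its call was lost with a pseudocount of 0.1 (adjusted p = 0.0505 in limma). KZV31986, a LEA 76-like gene, had 1.85 (standard error 0.52, adjusted p = 0.0225), at 4734, 5323 and 5066 FPKM in AD and 1300.2, 969 and 1776 FPKM in FD. Its call was lost without the filter (adjusted p = 0.0897 in limma), after median-ratio scaling (0.0614), without replicate 2 of F (0.073) and without replicate 2 of FD (0.0739).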

How the results depend on the processing

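Of 124 values of single members, 97 kept their side of the threshold, or stayed within the spread where there was no test, after median-ratio scaling, 120 with a pseudocount of 0.1, 120 without the filter on low values, 123 with a replicate block and 109 in a fit of each comparison's libraries alone, as did 707 of 750 without single libraries. Scaling shifted the median of all genes by up to 0.574 (F18D/F18) and turned the AD/SD log2 fold changes of KZV56071 to 0.26 and of KZV53322 to 0.09, both uncalled. It also moved the counts over all genes. Those called higher in A18D/A18 went from 1204 to 2156, and those called lower in F18D/F18 from 5654 to 1832. The shares of all genes given above are those without scaling. The cause of the changes below was not tested, beyond fewer libraries in the fits that leave some out. Read counts were not used here, so the precision that depth gives each value is unknown.

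Replicate numbers do not mark shared plants in the labels, and same-numbered libraries did not deviate together (correlations of deviations between -0.43 and 0.337, in no comparison all over 0.1). With the replicate block, members called higher in A/F went to 0, which was the 1 count of called genes that left 1.5 times its value. Members called higher in A/F were 0 without the filter and 0 in a fit of these libraries alone as well.

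In fits of the libraries of each comparison alone, members called higher were 2 in A18/F18, 2 in F18/F, 0 in A4/A, 3 in A18/A, 4 in AD/FD and 2 in (AD/A)/(FD/F), where 1 was called lower. Over all genes such fits called none in A/F or A4/A. They called 96 genes higher in A18/F18, 184 in A18/A and 1391 in AD/FD, against 375, 1197 and 1291 in the main fit. Other LEA-type genes called higher there were 2 in A18/F18, 3 in F18/F, 0 in A4/A, 5 in A18/A and 13 in F4D/F4. Those called lower were 2 in F18/F, 2 in AD/FD, 2 in AD/SD, 1 in SD/F, 0 in F4D/F4 and 1 in (AD/A)/(FD/F). After scaling, members called higher in F18/F were 2, other LEA-type genes called higher were 4 in F18/F, 8 in A18D/A18 and 1 in (AD/A)/(FD/F), and those called lower were 2 in F18/F, 1 in SD/F and 0 in F4D/F4. Without the filter, other LEA-type genes called higher were 7 in AD/SD and 1 in (AD/A)/(FD/F), and 1 was called lower in SD/F. With a pseudocount of 0.1, 1 was called higher in (AD/A)/(FD/F). Methylation differences of the members were 31 from 10 points, 55 from 5 points and 10 by the next locus tag.

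Without single libraries, members called higher were 0 in A/F, 0 to 1 in A4/F4, 4 to 7 in A18/F18, 2 to 4 in F18/F, 1 to 3 in A4/A and 4 to 6 in A18/A. Members called lower were 0 to 1 in A18/A and 0 to 2 in (A18D/A18)/(F18D/F18). The value of KZV57972 in A18/F18 ran between -0.28 and 0.8, and that of KZV56073 in AD/FD between -0.12 and 0.33. Other LEA-type genes called higher were 0 to 2 in A/F, 0 to 4 in F4/F, 3 to 10 in F18/F, 0 to 4 in A4/A, 12 to 18 in A18/F18, 3 to 5 in AD/FD, 7 to 10 in AD/SD, 2 to 4 in A18D/A18, 0 to 1 in A/SD and 1 to 3 in (AD/A)/(FD/F). Those called lower were 0 to 1 in F18/F, AD/A, F4D/F4, A4D/A4, (AD/A)/(FD/F) and (A18D/A18)/(F18D/F18), 1 to 2 in SD/F and 7 to 10 in SD/FD.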
